A study of Mus musculus with 2 samples.

Results

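The thick filament of the muscle sarcomere carries myosin-binding protein C and is cross-linked at its centre, the M-band, by myomesins. The 6 mouse genes that encode these proteins, Mybpc1, Mybpc2, Mybpc3, Myom1, Myom2 and Myom3, were examined for open chromatin, out of 21911 protein-coding genes in the annotation. They were chosen by name as the 2 families. For each gene the window was the gene record plus 20 kb on both sides, and every peak and footprint in it was taken. The data were DNase-seq, in which the enzyme DNase I cuts DNA that nucleosomes leave exposed, from gastrocnemius (calf muscle) tissue of adult male mice of the F1 hybrid strain B6CASTF1/J aged 18 to 20 months. There was 1 group with 2 samples, biological replicates 1 and 2, each with technical replicate 1. Their labels give the same donor and different biosamples, and the sources used here do not say whether 1 or 2 animals were used. An SD (n = 2) is therefore the spread of these samples, which may be technical. No control, other age or treatment was given, so no groups were compared and no p-value is reported. Both parental genomes were read against 1 reference, and alleles were not separated.

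Myosin-binding protein C tethers the myosin heads near the filament backbone and tunes how readily they bind actin; Mybpc1 is known as the slow skeletal form, Mybpc2 as the fast skeletal form and Mybpc3 as the cardiac form. Myomesins are elastic cross-bridges between neighbouring thick filaments that also bind titin; Myom1 is expressed in all striated muscle, Myom2 (M-protein) marks fast fibres and Myom3 has been described in slow and intermediate fibres. The gastrocnemius of the mouse is a mainly fast muscle, so these families hold both genes used in its fibres and a gene used in the heart.

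The 2 samples held 131398 and 91567 peaks, with a median signal of 0.599 and 0.760 in the authors' unit, and 339656 and 234091 footprints, which are short stretches protected from cutting inside open chromatin. The scale of the signal is not stated and the read depth is unknown, so signals are given with their percentile among all peaks of the same sample. Promoters of all 10 skeletal fibre genes checked as tissue markers (Acta1, Ckm, Actn3, Tnnt3, Atp2a1, Ryr1, Myl1, Mylpf, Des and Pygm) were open in both samples, with median signals of 3.89 and 3.29. Of 10 heart genes, 3 were, with signals of at most 0.695 and 0.760, and of the 3 satellite cell genes Pax7, Myf5 and Calcr, none was in either. Over all protein-coding genes the share open in both was 62.3%. The marker lists were chosen with earlier results of these data known, so these counts are no independent check of tissue. For the myosin heavy chain genes Myh1, Myh2, Myh4 and Myh7, which were on another list, no promoter peak was shared by both samples. That list had 23 of 26 genes with a promoter peak in replicate 1 and 20 in both. A peak in replicate 1 alone thus remains possible at some of these heavy chain genes. In whole tissue, fewer nuclei of a type and less opening per nucleus cannot be told apart.

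A promoter peak, within 1000 bp of an annotated start site, was called for 5 of the 6 members in the first sample and for 4 in the second; the same 4, Mybpc1, Mybpc2, Myom1 and Myom2, had one in both. The background over the whole annotation was 65.5% for the first sample, 63.4% for the second and 62.3% for both, so the members' share was close to it. Myom3 had a weak promoter peak in replicate 1 alone and Mybpc3 had none. Among the regions of each gene itself, leaving out promoters shared with other genes, the strongest by mean signal was upstream of the start at Mybpc2 and Myom2 and inside the gene at Mybpc1, Myom1 and Myom3.

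Across the 6 windows there were 95 peaks in replicate 1 and 75 in replicate 2 (mean 85 ± 14.1, SD, n = 2). Of these, 57 in each sample overlapped a peak of the other, which is 60.0% of replicate 1 (58.4% of all its peaks) and 76.0% of replicate 2 (83.6% of all its peaks). Joined where they overlapped, they made 113 regions, of which 57 were open in both, 38 in replicate 1 alone and 18 in replicate 2 alone. Regions called in both had a median mean signal of 1.40, against 0.533 for those of replicate 1 alone and 0.294 for those of replicate 2 alone. Regions called in 1 sample were thus weaker by median than shared ones. Those of replicate 2 alone were also far below the median of all its peaks (0.760). Those of replicate 1 alone were near the median of all its peaks (0.599), and the strongest reached 1.64. Footprints numbered 282 and 165 (mean 223.5 ± 82.7, SD, n = 2); 35.5% of the former and 61.2% of the latter overlapped a footprint of the other sample, where the shares over the whole files were 41.6% and 61.5%.

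**Figure D1:**
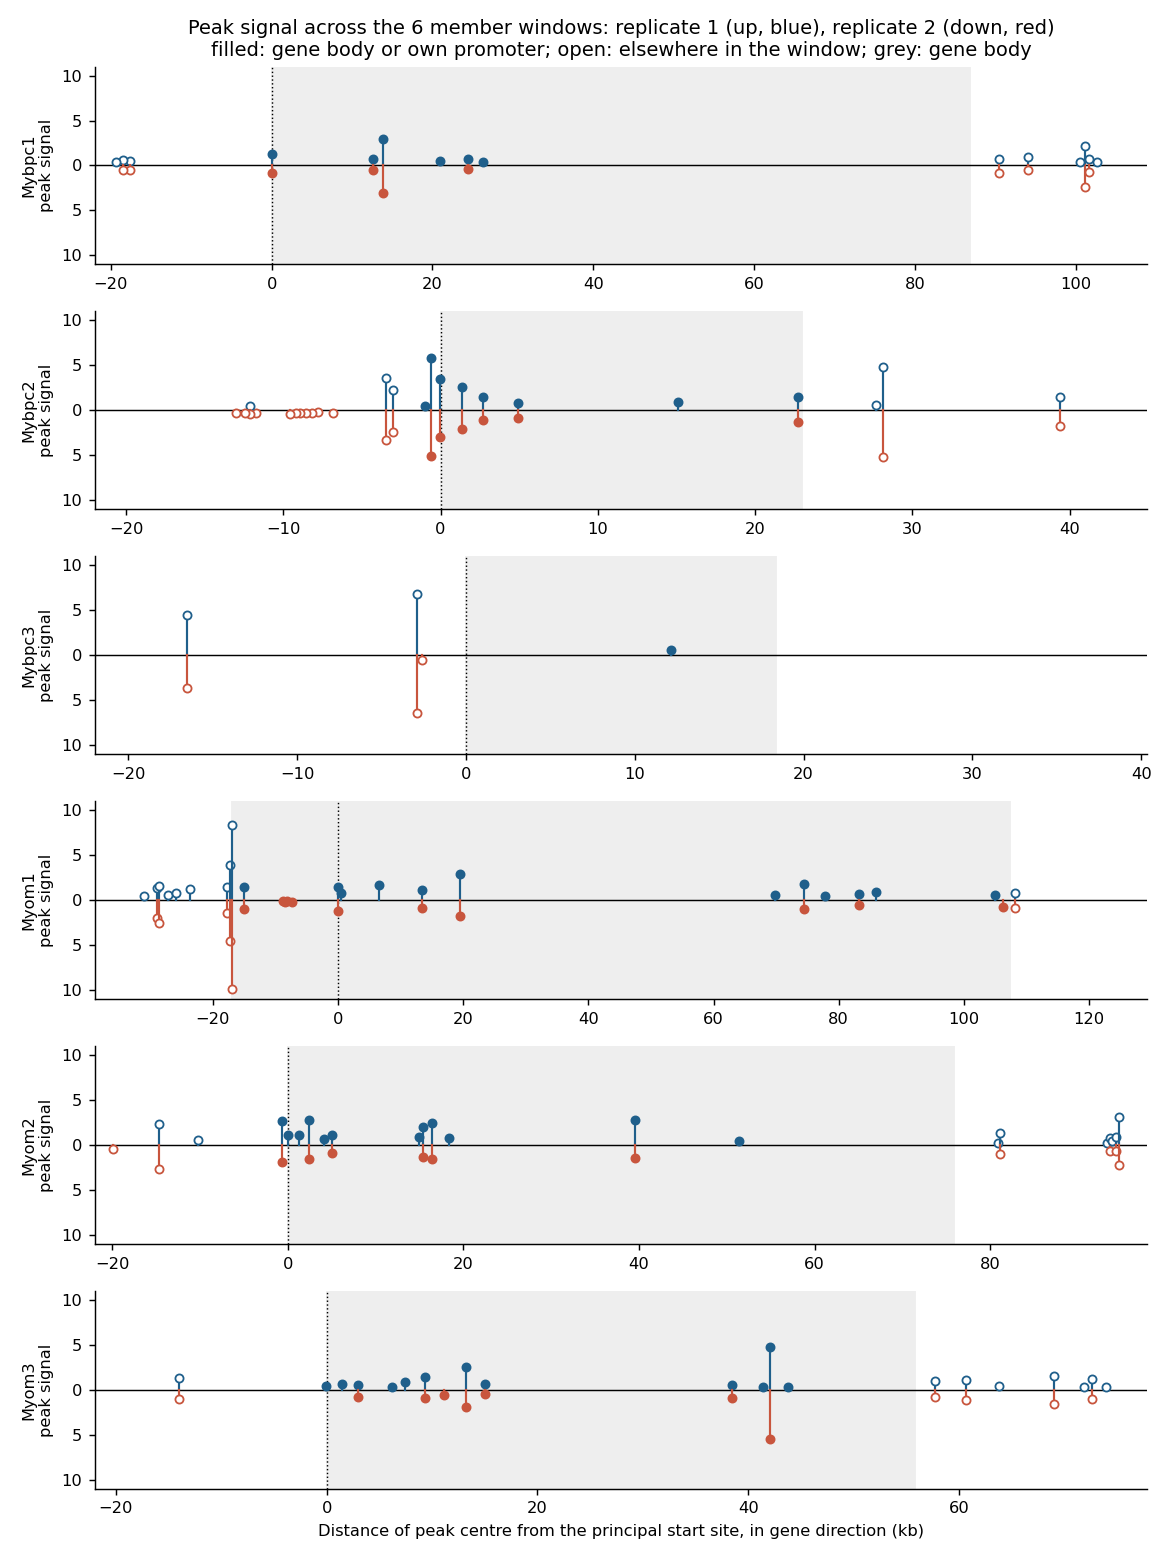
Peak signal (vertical axis, authors' unit) against the distance of the peak centre from the principal start site in the direction of the gene (kb), 1 panel per member, with replicate 1 drawn upward in blue and replicate 2 downward in red. Filled points lie in the gene body (grey) or its own promoter and open points elsewhere in the window; the own regions of Mybpc2 are highest just upstream of its start, Myom3 is highest at 42016 bp inside the gene, and Mybpc3 has 1 low point in its body.

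Mybpc2, the fast skeletal form, lies on the minus strand of chromosome 7 (mm10, 44501699 to 44524656) and had the most open promoter of the 3 binding protein genes. The region centred 625 bp upstream of its start gave signals of 5.83 and 5.09 in replicates 1 and 2 (mean 5.46 ± 0.523, SD, n = 2), in percentiles 97.6 and 94.9 of all peaks. A separate region over the start itself, centred 45 bp upstream, had 3.44 and 2.96. The order was the same in both samples: the upstream region exceeded the one over the start by more than the spread between replicates of either. A weaker peak 969 bp upstream, at 0.528, was called in replicate 1 alone. Of the 2001 bp around the start, 62.8% and 44.4% were listed by the authors below a false discovery rate of 0.05, against a median over all genes of 22.4% and 19.2%.

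The sequences of both promoter regions are shown because the upstream one had the highest mean signal of all own regions of the members, and the other covers the start of the same gene. They are given 5′ to 3′ on the strand of the gene from GRCm38.p6 (chr7:44525161-44525400 and, up to the base before the start, chr7:44524657-44524840), with bases inside footprints of both replicates in capitals.
Mybpc2 upstream: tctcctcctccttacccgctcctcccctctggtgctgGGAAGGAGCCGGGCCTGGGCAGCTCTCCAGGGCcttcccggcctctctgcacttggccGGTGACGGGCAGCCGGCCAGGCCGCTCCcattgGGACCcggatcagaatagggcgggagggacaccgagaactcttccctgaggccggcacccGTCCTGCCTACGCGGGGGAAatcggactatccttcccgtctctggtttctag
Mybpc2 start: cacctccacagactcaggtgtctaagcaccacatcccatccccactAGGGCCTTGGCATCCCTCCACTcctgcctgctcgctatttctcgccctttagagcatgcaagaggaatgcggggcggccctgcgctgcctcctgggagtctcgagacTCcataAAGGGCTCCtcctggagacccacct

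The upstream region held 3 footprints in replicate 1 and 4 in replicate 2, and their overlap covered 86 of its 240 bases in 4 stretches. One stretch ended next to a CCAAT box, read on the opposite strand as ATTGG at bases 125 to 129. A footprint of replicate 1 covered the whole box, whereas in replicate 2 only the last base of the box lay in a footprint. A GGGCGG of the SP/KLF type at bases 146 to 151 lay outside the footprints of both. In the start region 33 of 184 bases were protected in both. There an MCAT element (GGAATG, the reverse complement of CATTCC) at 75 bases before the start lay in a footprint of replicate 2 alone. A GGGCGG at 67 bases overlapped the same footprint in part, and a CAGGTG at 170 bases before the start lay in none.

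Inside Mybpc2 the regions open in both replicates were lower from intron 1 to intron 7. The signal was 2.58 and 2.05 in intron 1, 1.47 and 1.09 in intron 4, and 0.812 and 0.794 in intron 7. A peak in exon 18 had 0.959 and was called in replicate 1 alone, and a region in intron 27, near the end of the gene, had 1.50 and 1.31. Its window also reached 2 regions in exons of Spib, which encodes an ETS factor of lymphoid and dendritic cells, at 3455 and 3005 bp upstream of the Mybpc2 start, with 3.55 and 3.24 in the former and 2.28 and 2.42 in the latter. The shared promoter of Emc10 and Fam71e1 beyond the other end had 4.83 and 5.22. Mybpc2 was the only member with more peaks in replicate 2 (21) than in replicate 1 (14). A run of 8 weak peaks over Spib and Pold1 was called in replicate 2 alone, with signals from 0.235 to 0.352; without it the window held 13. With the run, the 3.34 peaks per 10 kb of replicate 2 stood at percentile 98.4 of all genes, without it at 93.5, and replicate 1 was at 91.7.

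Mybpc1, the slow skeletal form, on the minus strand of chromosome 10 (88518279 to 88605152), had a modest promoter and a stronger opening within intron 1. The region over its start had 1.30 in replicate 1 and 0.794 in replicate 2 (mean 1.05 ± 0.358, SD, n = 2), in percentiles 77.0 and 52.3, so in replicate 2 it was a middling peak. The intron 1 region, 13871 bp into the gene, had 2.99 and 3.01 (mean 3.001 ± 0.00898, SD, n = 2), in percentiles 92.3 and 89.2. The intronic region exceeded the promoter in both samples, by more than the spread between replicates.

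The intron 1 region is shown with 34 of its 280 bases in capitals for protection in both replicates (chr10:88591141-88591420, minus strand, GRCm38.p6); beside it stands the part of the promoter region before the start (chr10:88605153-88605260), where no footprint was called in either.
Mybpc1 intron 1: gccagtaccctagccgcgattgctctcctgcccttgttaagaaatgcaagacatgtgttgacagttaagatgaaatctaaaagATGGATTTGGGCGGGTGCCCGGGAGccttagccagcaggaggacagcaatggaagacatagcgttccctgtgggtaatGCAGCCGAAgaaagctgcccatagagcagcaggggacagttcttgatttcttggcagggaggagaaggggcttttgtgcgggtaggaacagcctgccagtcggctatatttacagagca
Mybpc1 start: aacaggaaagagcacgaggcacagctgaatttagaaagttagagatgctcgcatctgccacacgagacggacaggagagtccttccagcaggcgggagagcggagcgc

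The longer protected stretch of intron 1 contained GGGCGG at bases 92 to 97. The 3 and 4 footprints of the promoter region lay past the start. Before it there was a myogenic E-box, CAGCTG, the sequence bound by MyoD-type factors, 87 bases away. Beyond these, Mybpc1 had a region in intron 1 at 12631 bp (0.695 and 0.526) and one in intron 3 (0.721 and 0.414). Each contained a CArG box, the element bound by serum response factor. From intron 4 to the end of the gene no peak was called in either sample. The 15 and 10 peaks of the window put it at percentiles 66.4 and 61.9 of all genes by peaks per 10 kb.

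Mybpc3, the cardiac form, on chromosome 2 (91118144 to 91136516), was the least open member. No peak lay within 1000 bp of its start in either replicate, and none of the 2001 bp there was listed below a false discovery rate of 0.05. In its body a single peak was called, in intron 22, at 0.533 in replicate 1 alone. The strong regions of its window lay within the neighbour Spi1, which encodes the myeloid and B cell factor PU.1. Which gene they act on was not tested. A region in an exon of Spi1, 2883 bp before the Mybpc3 start, had 6.85 and 6.46 (percentiles 98.4 and 96.8), and one in an intron of Spi1 had 4.46 and 3.59. The former contained a match to the CTCF consensus inside footprints of both replicates. Macrophage markers were low at their own promoters. Peaks were called in both replicates at 2 of the 4 promoters, those of Cd68 and of Spi1 itself, with signals of at most 0.731 and 1.12. None was called in both at Csf1r or Ptprc. The part of such cells in the regions within Spi1 was not tested.

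The closed promoter is shown for comparison with the open ones (150 bases before the start, chr2:91117994-91118143, plus strand, GRCm38.p6). It has no capitals, since no footprint was called in it.
Mybpc3 start: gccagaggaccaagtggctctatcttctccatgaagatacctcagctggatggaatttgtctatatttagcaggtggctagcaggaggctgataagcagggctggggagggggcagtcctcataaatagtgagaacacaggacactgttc

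These letters held a CAGCTG at 108, a CAGGTG at 80 and a match to the MEF2 consensus at 90 bases before the start, MEF2 being a factor family of striated muscle. The ratio of observed to expected CpG around this start, 250 bases before to 50 after, was 0.0478 (percentile 5.53 of all genes, median 0.537). The other members had 0.679 at Mybpc1, 0.330 at Mybpc2, 0.230 at Myom1, 0.101 at Myom2 and 0.214 at Myom3, so all except Mybpc1 were below the median.

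Myom1, the general myomesin, on chromosome 17 (71002633 to 71126856), has a far upstream start that it shares with other genes and a principal start within the record. The upstream start had the strongest region of all 6 windows, 8.35 in replicate 1 and 9.84 in replicate 2 (mean 9.10 ± 1.06, SD, n = 2), in percentiles 99.2 and 99.2. It lies 16940 bp before the principal start within 1000 bp of annotated starts of Myl12a and Myl12b, which encode regulatory light chains of nonmuscle myosin and are read in the opposite direction to Myom1, so its signal cannot be assigned to Myom1. The principal start, at position 71019521, had 1.45 and 1.18 (mean 1.32 ± 0.193, SD, n = 2), in percentiles 79.8 and 68.3. Taken at the principal start alone, Myom1 kept its promoter peak in both samples but its mean signal was 1.32 in place of 9.10.

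Within the gene the strongest region was in intron 5, 19480 bp past the principal start, with 2.91 and 1.74 (mean 2.33 ± 0.827, SD, n = 2). The principal promoter and the intron 5 region are shown (chr17:71019381-71019520, up to the base before the start, and chr17:71038851-71039150, plus strand, GRCm38.p6), with protected bases of both replicates in capitals.
Myom1 start: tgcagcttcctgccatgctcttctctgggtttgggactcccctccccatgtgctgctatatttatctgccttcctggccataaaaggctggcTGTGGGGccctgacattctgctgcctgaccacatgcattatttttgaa
Myom1 intron 5: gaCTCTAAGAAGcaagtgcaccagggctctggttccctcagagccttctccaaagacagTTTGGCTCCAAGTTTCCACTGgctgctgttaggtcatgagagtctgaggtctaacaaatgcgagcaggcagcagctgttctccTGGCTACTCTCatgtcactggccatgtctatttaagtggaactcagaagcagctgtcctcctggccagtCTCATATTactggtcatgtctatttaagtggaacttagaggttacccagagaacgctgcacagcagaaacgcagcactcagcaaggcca

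The promoter stretch had 1 footprint in each sample, and 7 bases were shared between them, next to but outside a CArG box at 63 bases before the start. In intron 5 there were 6 and 5 footprints, of which the common part covered 50 of 300 bases. A 21-base sequence, catgtctatttaagtggaact, occurs at base 165 and again at base 226, 61 bases apart. A CAGCTG (bases 131 to 136 and 192 to 197) and then a protected stretch come before each copy. The first of these E-boxes overlapped a footprint of replicate 1 and the second none.

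Other openings of Myom1 were in intron 2 at 13420 bp (1.17 and 0.889), in intron 22 (1.84 and 0.956) and in intron 25 (0.701 and 0.576). Each was lower in replicate 2. A region at 6590 bp in intron 2 had 1.64 in replicate 1 and was not called in replicate 2. Conversely, a run of 4 very weak peaks between the 2 start sites, from 0.0783 to 0.184, was called in replicate 2 alone. The window held 22 and 17 peaks, at percentiles 72.4 and 72.9 of all genes per 10 kb, and 13 in replicate 2 without that run, at percentile 62.1.

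Myom2, which encodes M-protein, lies on chromosome 8 (15057653 to 15133541). As at Mybpc2, its strongest promoter region was not over the start but 632 bp upstream, with 2.65 in replicate 1 and 1.94 in replicate 2 (mean 2.29 ± 0.502, SD, n = 2). The region over the start had 1.15 in replicate 1 and was not called in replicate 2. With a promoter of 500 bp in place of 1000 bp, Myom2 therefore no longer had a promoter peak in both samples. Its upstream region (chr8:15056921-15057120), the bases before the start within the replicate 1 peak (chr8:15057521-15057652) and the strongest intronic region (chr8:15059961-15060240) are given on the plus strand of GRCm38.p6, with protected bases of both replicates in capitals.
Myom2 upstream: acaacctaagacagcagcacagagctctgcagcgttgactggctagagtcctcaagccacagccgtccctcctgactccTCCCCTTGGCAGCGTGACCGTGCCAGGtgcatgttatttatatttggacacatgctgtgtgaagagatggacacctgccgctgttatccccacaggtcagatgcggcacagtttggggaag
Myom2 start: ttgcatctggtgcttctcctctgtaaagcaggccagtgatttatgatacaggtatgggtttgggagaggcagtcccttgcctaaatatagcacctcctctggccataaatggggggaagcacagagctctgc
Myom2 intron 1: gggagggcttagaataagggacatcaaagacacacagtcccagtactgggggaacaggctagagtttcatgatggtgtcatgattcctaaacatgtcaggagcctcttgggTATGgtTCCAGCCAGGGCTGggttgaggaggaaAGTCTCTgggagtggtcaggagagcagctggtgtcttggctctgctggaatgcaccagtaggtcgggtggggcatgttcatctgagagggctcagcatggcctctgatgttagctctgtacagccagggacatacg

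The upstream region had 3 footprints in replicate 1 and 1 in replicate 2. The one they shared had identical borders, 27 bases long, and its end ran into a CAGGTG at bases 103 to 108. A second such E-box, read as CACCTG at bases 151 to 156, overlapped in part a footprint of replicate 1 alone. The start had a CArG box at 30 bases before the start, in a footprint of replicate 1, and a MEF2 match at 52 bases.

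Myom2 had 5 regions in its introns that were open in both replicates. The one in intron 1 at 2448 bp had 2.80 and 1.55, the 2 in intron 6 had 2.47 and 1.50 and 2.02 and 1.36, and the one in intron 13 had 2.75 and 1.48. The remaining one, in intron 1 at 5058 bp, had 1.12 and 0.889. Beyond the last of them, from intron 14 to the end, 1 weak peak was called, in intron 20 at 0.406 in replicate 1 alone. A region 94618 bp from the start, past the end of the gene, had 3.09 and 2.17, the highest mean of the window, though in replicate 2 the promoter of the neighbour BB014433 was higher (2.38 and 2.65). Peaks per 10 kb were at percentiles 85.3 and 72.9 of all genes.

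Myom3, on chromosome 4 (135759715 to 135815564), had the weakest promoter peak of those called, 0.406 in replicate 1 (percentile 31.1), and none in replicate 2. Its strongest region was far inside the gene, centred 42016 bp from the start, and ran from intron 27 across exon 28 (called the exon 28 region here). It had 4.74 in replicate 1 and 5.44 in replicate 2 (mean 5.09 ± 0.494, SD, n = 2), in percentiles 96.2 and 95.5. Its mean differed from that of the region upstream of Mybpc2 by less than the SD of either. The next was in intron 7, with 2.57 and 1.89. The central 300 bases of the exon 28 region (chr4:135801581-135801880) and the bases before the start (chr4:135759616-135759714) are given on the plus strand of GRCm38.p6, to set the most protected of the sequences shown beside a promoter that was hardly open.
Myom3 exon 28: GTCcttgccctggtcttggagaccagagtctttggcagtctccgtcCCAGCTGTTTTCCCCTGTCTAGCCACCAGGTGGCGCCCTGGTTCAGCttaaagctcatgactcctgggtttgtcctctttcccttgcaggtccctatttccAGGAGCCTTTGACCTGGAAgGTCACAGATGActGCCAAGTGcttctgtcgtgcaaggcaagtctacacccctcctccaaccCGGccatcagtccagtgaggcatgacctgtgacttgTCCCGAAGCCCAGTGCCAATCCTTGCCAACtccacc
Myom3 start: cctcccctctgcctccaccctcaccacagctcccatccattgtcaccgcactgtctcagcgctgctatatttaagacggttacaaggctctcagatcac

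Protected bases of both replicates, in capitals, made up 121 of the 300 bases of the exon 28 region, in 7 stretches. The longest contained a match to the consensus of CTCF, a factor that marks domain borders and insulators, at bases 69 to 81, in the part that belongs to intron 27. This match includes a CAGGTG at bases 73 to 78, and a CAGCTG stood just before it at bases 48 to 53. An AAGGTCA, the sequence bound by estrogen-related receptors, at bases 165 to 171 was protected in both replicates except for 1 base. In contrast, no base before the start was protected in both. A MEF2 match lay 35 bases before the start. Myom3 had 20 and 12 peaks, at percentiles 89.95 and 80.0 of all genes per 10 kb.

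**Figure D2:**
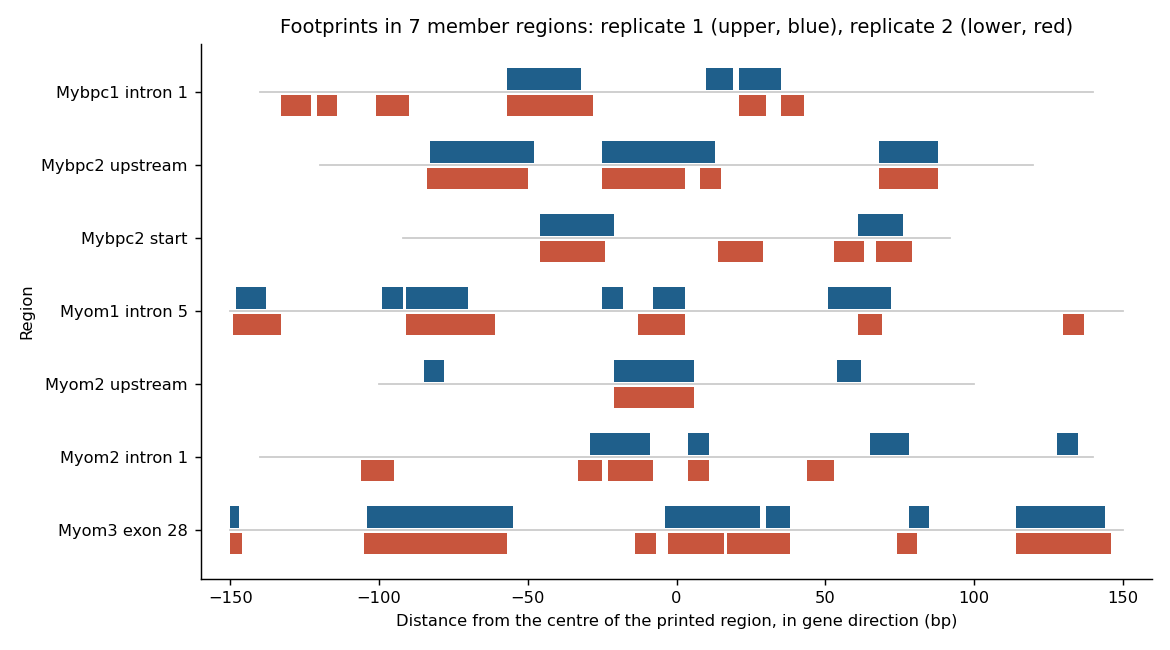
Footprint positions (horizontal axis, bp from the centre of each region in the direction of the gene) in 7 member regions, with replicate 1 above each grey line in blue and replicate 2 below in red; the grey line is the printed stretch. The shared footprint upstream of Myom2 has the same borders in both replicates, and the exon 28 region of Myom3 is the most densely covered.

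**Figure D3:**
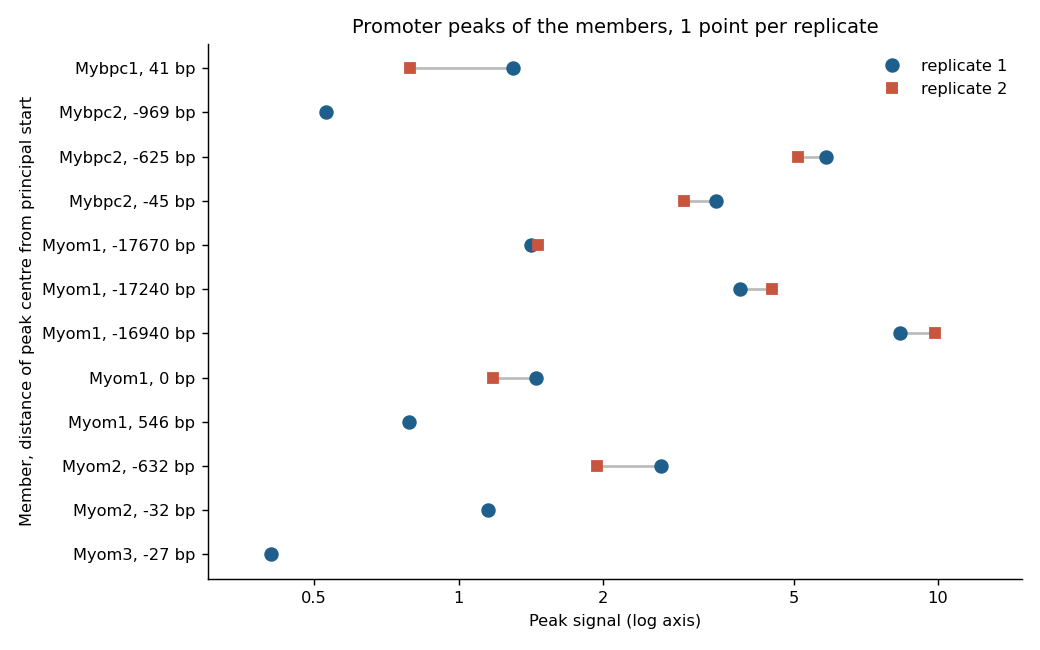
Signal of every promoter peak of the members (horizontal log axis, authors' unit), with 1 row per region named by its distance in bp from the principal start; circles are replicate 1 and squares replicate 2, and a row with a circle alone was not called in replicate 2. The regions 625 bp upstream of Mybpc2 and 632 bp upstream of Myom2 lie to the right of those over their starts, and no row belongs to Mybpc3.

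Motifs were counted in the central 200 bp of every peak on both strands for 19 consensus sequences. CAGGTG, an E-box that several factor families bind, was in 27 of 95 member peaks of replicate 1 (28.4%, exact 95% interval 19.6 to 38.6) and in 20 of 75 of replicate 2 (26.7%, 17.1 to 38.1). Its share in all peaks was 13.8% and 14.97%. It was unevenly spread, with 9 and 11 of these peaks in the Mybpc2 window, 8 and 4 in that of Myom2, 5 and 3 in that of Myom3 and none in that of Mybpc3. Most of those in the Mybpc2 window lay outside its gene body and own promoter, among them peaks at Emc10 and Fam71e1, Spib and Pold1. In replicate 2 they included peaks of the weak run called in that sample alone. In 2 of the peaks of each sample the matches all lay within CTCF matches. The CArG box was in 6 peaks of replicate 1 (6.32%, 2.35 to 13.2) and 4 of replicate 2 (5.33%, 1.47 to 13.1), against 0.985% and 0.902% of all peaks. Those with it in replicate 1 were 2 of Mybpc1, 1 each of Myom1 and Myom2, and 2 of Myom3.

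The myogenic E-box CAGCTG was in 22.1% and 28% of member peaks, against 19.7% and 19.7% of all peaks. The MEF2 consensus was in 3 of 95 and 0 of 75 peaks, against 3.03% and 1.96%, and the exact interval for the latter reached 4.80%. Peaks of the 2 samples largely cover the same places. The 2 motifs with the larger gap were singled out among 19 after their values were seen, so these shares are descriptions. The intervals cover counting error only and treat peaks as independent, although the peaks cluster in the windows of the members.

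Among the 57 regions open in both replicates the signals ran together (Pearson r of log2 signal 0.931, Spearman rho 0.922, across regions of the same 2 samples, which are not independent replicates; 0.935 and 0.911 over all 76733 shared peaks). The members' own regions, in a gene body or at a start site used by no other gene, nevertheless sat lower in replicate 2. The log2 ratio of replicate 2 to replicate 1, set relative to its median over all shared peaks, was below 0 in 24 of 28 own regions (median -0.40) and in 15 of 29 other regions of the same windows (median -0.02). At own promoters it was below 0 in 5 of 5, where 30.2% of all shared promoter peaks were, and in gene bodies in 19 of 23, where 58.0% of shared peaks away from promoters were.

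By gene, all 6 own regions of Myom2 were below 0 (median -0.63), as were all 6 of Myom1 (median -0.45) and all 6 of Mybpc2 (median -0.20). Mybpc1 had 3 of 4 (median -0.55), the exception being the intron 1 region at 0.01. Myom3 was mixed, with 3 of 6 (median -0.10): intron 5 at -0.72 and intron 7 at -0.43 stood beside exon 28 at 0.21 and intron 24 at 0.78. The other regions of the Myom1 window went the other way, with 0 of 6 below 0 (median 0.25). They lay at the Myl12b promoter, at the upstream start that Myom1 shares with Myl12a and Myl12b, and past the end of Myom1 (0.26). With 1 group of 2 samples this difference between samples has no test.

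**Figure D4:**
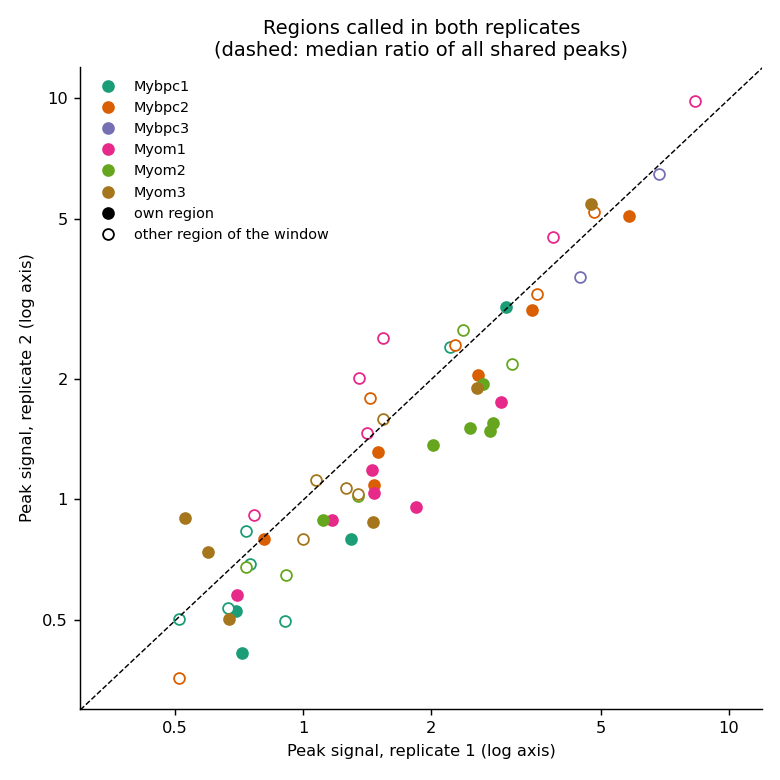
Signal in replicate 2 against replicate 1 (both log axes, authors' unit) for the 57 regions open in both, coloured by member, filled for own regions and open for others; the dashed line is the median ratio of all shared peaks. Of the filled points 24 of 28 lie below the line, and the open points lie on both sides.

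The same quantity was taken at promoters of marker lists. Of gene promoters open in both samples, 30.1% were below 0 (median 0.11). Among the skeletal fibre genes 9 of 10 were (median -0.26), and among 20 open promoters of 26 other thick filament and M-band genes 16 were (median -0.31, from -1.21 to 0.57). Ckm, Myl1 and Mylpf were on both lists. The 3 endothelial promoters (Pecam1, Cdh5 and Kdr) had a median of 0.80 with none below 0, the 2 open macrophage promoters 0.54 with none below 0, the 3 fibroblast promoters -0.06, all below 0, and the 3 open heart promoters 0.38. Of 3 smooth muscle promoters 2 were open in both (-0.18 and 0.06), and of 3 Schwann cell promoters 1 was (0.08). The part of cell makeup in the members' ratios was not tested.

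**Figure D5:**
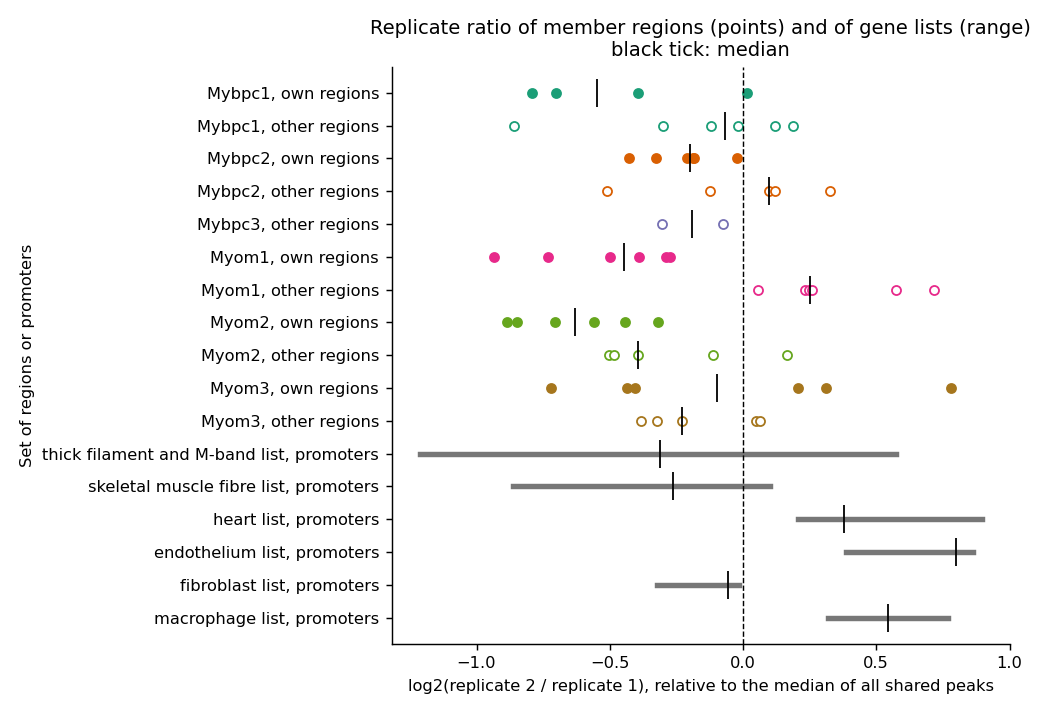
Log2 ratio of replicate 2 to replicate 1 relative to the median of all shared peaks (horizontal axis), as points for the own (filled) and other (open) regions of each member and as grey ranges for promoters of 6 gene lists; black ticks are medians. The own regions of Myom1, Myom2 and Mybpc2 lie left of 0 and the endothelial and macrophage lists lie right of it.

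Of the other thick filament and M-band genes, 23 of 26 had a promoter peak in replicate 1 and 20 in both. Those without one in both were Mybphl, Myh1, Myh2, Myh4, Myh7 and Myl2. By the summed difference of promoter percentiles over the 2 samples, the gene most like Mybpc2 among the 20 was Cmya5, which encodes myospryn (6.12 and 6.51 against 5.83 and 5.09). The most like Myom2 was Ttn, which encodes titin (3.03 and 2.11 against 2.65 and 1.94), and the most like Mybpc1 was Mybph, a related binding protein (1.05 and 0.816 against 1.30 and 0.794). For Myom1 it was Nbr1 (7.92 and 7.69), through the upstream start that Myom1 shares. In order of promoter signal the members were Myom1, Mybpc2, Myom2, Mybpc1 and Myom3 in both lists as far as called, and no neighbours in this order from Myom1 to Mybpc1 overlapped between replicates. Taken at its principal start, Myom1 (1.18 to 1.45) overlapped Mybpc1 (0.794 to 1.30) and stood below Myom2.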

How the data were processed

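DNase-seq was analysed for 2 gastrocnemius samples of 1 group. Per the notes the authors deposited with the files, all lists derive from alignments to mm10, separately for each sample; the aligner, the caller and their versions are not given in the sources used here. The deposited peak lists hold a signal per peak (the authors' unit, scale not stated). The deposited site files hold a p-value type column, a false discovery rate listed under 0.05, and the same column of the deposited footprint files is a constant 0.01, used for nothing. The authors deposited a larger and a stricter peak list per sample; the larger was used.

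Genes came from the GENCODE annotation of the same build (21911 protein-coding genes, 1 per symbol). A window was the gene record with 20 kb on both sides, and a promoter 1000 bp on either side of a protein-coding start site; transcripts marked as incomplete at the 5′ end gave no start site. Peaks and footprints overlapped when they shared at least 1 bp. Overlapping peaks of the 2 samples were joined into regions, each with its strongest peak per sample. Percentiles are ranks within the list of 1 sample. Sequences came from RefSeq's GRCm38.p6, outside annotated UTRs; for 5 of 5 members with an entry in the RefSeq promoter table, the letters were identical to the genome. The members and lists were chosen with earlier results of these data known. Named regions were, by rule, the promoter peaks and the strongest regions open in both samples of each member, and named genes the members with the nearest gene of the thick filament list. Further regions of the windows, some weak or called in 1 sample alone, and the neighbouring and list genes were named outside this rule. Overlap, rank and motif counts were tested on simulated data. Python 3.11.15, numpy 2.4.6 and scipy 1.17.1 were used. No test was run, since there was 1 group; alternatives were other lists, promoter widths, windows and leaving out each sample.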

Additional observations from a re-analysis of the deposited data

How the results depend on the processing

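Every alternative left the count of members with a promoter peak in both replicates between 3 and 5 (main 4). Leaving out 1 sample gave 4 and 5 members, 75 and 95 peaks and 165 and 282 footprints. Windows decided how much was counted. With 2 kb on both sides in place of 20 kb the windows held a mean of 47.5 peaks, 33 shared peaks and 133.5 footprints, and for the gene bodies alone 41, 27 and 108.5 (main 85, 57 and 223.5); fewer bases are searched by construction. The stricter list gave 61 peaks and 44 shared, the stronger 50% of each list 57 and 44, the same number of top peaks 80.5 and 57, and a reciprocal overlap of 50% gave 50 shared. The count of own regions lower in replicate 2 (24 of 28) was 23 against shared peaks away from promoters, 23 by percentile among shared peaks and 17 of 21 in the stricter lists; these 3 alternatives, the start sites of incomplete transcripts and of principal transcripts alone (4 members each), and peaks without the 2 runs called in 1 sample (79) were added after seeing the data. Of 78 values for single members and motifs, 44 moved, nearly all counts in narrower windows or motif shares in 400 bp in place of 200 bp. No paired analysis was possible because there was a single group with nothing to pair it with. Read depth is unknown and limits which weak peaks could be called in either sample; with n = 2 an SD is itself imprecise.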

Other observations

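A 9-base sequence, CTATATTTA, recurred in the sequences printed for the members and was counted after it had been noticed there. Counted on both strands from 250 bases before to 50 after any annotated start site, it was present at 4 of the 6 members (Mybpc3, Myom1, Myom2 and Myom3) and at 64 of 21907 genes in all (0.292%). With the principal start of each member and the most 5′ start of every other gene it was at 4 members and 39 genes (0.178%); at the most 5′ start of the members it was at 3, since the match of Myom1 belongs to its principal start. It began 90 bases before the start of Mybpc3, 85 before that of Myom1, 35 before that of Myom3 and, on the opposite strand, 51 before that of Myom2. With 10 bases on either side, matches in capitals, these read 5′ to 3′ on the strand of each gene (GRCm38.p6) as follows.
Mybpc3: tggaatttgtCTATATTTAgcaggtggct
Myom1: ccatgtgctgCTATATTTAtctgccttcc
Myom2: gtcccttgccTAAATATAGcacctcctct
Myom3: ctcagcgctgCTATATTTAagacggttac

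At Myom1 and Myom3 the 4 bases before it, gctg, are also the same, and the Mybpc1 intron 1 region holds the sequence at bases 265 to 273. The sequence overlaps what the MEF2 consensus accepts, and 3 of the 4 promoters also match that consensus. The other 35 genes were of mixed kinds. Of those known from muscle, picked after they were seen and against no fixed list, there were Myog, Klhl41, Trim72 and Dhrs7c. The rest included olfactory receptor, defensin, taste and vomeronasal receptor genes and genes of general function such as Kdm4c and Phf21a. None was on a gene list used here. Within the central 200 bp of peaks it was in 4 of 95 and 2 of 75 member peaks (4.21% and 2.67%), against 0.247% and 0.187% of all peaks. None of the matches in the printed sequences lay in a footprint of either sample, and at Mybpc3 the sequence stands in a promoter with no peak. Since the sequence was picked from the members' own letters, these counts are a description and no test was made.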
